A study of Mus musculus with 36 samples.

Results

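The 8 genes of epithelial polarity and apical trafficking examined in the fetal mouse mammary gland were *Rab25*, *Rhpn2*, *Crb3*, *Pard6b*, *Llgl2*, *Myo5b*, *Rab11fip1* and *Marveld2*. They were 8 of 18194 gene symbols on the array and were read by 15 of its 45101 probe sets, a probe set being the group of probes that reports a transcript. Of the probe sets annotated to a single symbol, the one with the highest mean over all 36 arrays stood for each gene. The genes had been chosen by their measured signal in these arrays, which was higher in the epithelium than in the stroma, so that the compartment difference is given as a description, with no test.

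Female C57BL/6 fetuses came from ERα(+/−) parents, and wild type, ERα(+/+), or ERα-null, ERα(−/−), fetuses were used. From E8 their dams received bisphenol A (BPA) at 250 ng/kg per day, the synthetic estrogen ethinylestradiol (EE2) at 10 ng/kg per day, or vehicle alone. Inguinal mammary glands were taken at E19. Ductal epithelium and peri-ductal stroma were separated by laser capture, and their amplified RNA was hybridized to expression arrays. The 12 groups of compartment, genotype and exposure had 3 arrays each, according to the methods from 3 litters, with a single gland of a single fetus of each genotype per litter. In ERα(−/−) fetuses the null allele was present in every cell. The dams carried it in heterozygous form, so that all groups developed in ERα(+/−) mothers.

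A ductal epithelial cell has an apical face toward the lumen and a basolateral face toward its neighbors and the stroma. The Crumbs and Par complexes define the apical domain, the Scribble module with the Lgl proteins defines the basolateral one, and each antagonizes the other. Membrane proteins reach the apical face through recycling endosomes that carry Rab11-family GTPases, their effectors and the motor myosin Vb. In the mammary gland these systems act while solid epithelial cords open into ducts with a lumen.

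Among the 8 genes, *Crb3* encodes the short Crumbs protein of most epithelia, *Pard6b* encodes a Par6 scaffold that links Cdc42 to atypical protein kinase C, and *Llgl2* encodes an Lgl protein of the basolateral side. *Rab25* encodes the epithelial member of the Rab11 family, *Rab11fip1* (Rab coupling protein) an effector that binds Rab11-family GTPases, and *Myo5b* the motor that moves their vesicles along actin. *Marveld2* encodes tricellulin, found where 3 cells meet at a tight junction, and *Rhpn2* encodes rhophilin 2, a protein that binds the GTPase RhoA.

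The genes lie on 8 chromosomes in GRCm38.p6, *Pard6b* on chromosome 2, *Rab25* on 3, *Rhpn2* on 7, *Rab11fip1* on 8, *Llgl2* on 11, *Marveld2* on 13, *Crb3* on 17 and *Myo5b* on 18. RefSeq promoter windows, from 250 bases before to 50 bases after a transcript start, were used for 5 of the 8 genes, namely *Rab25*, *Rhpn2*, *Crb3*, *Pard6b* and *Marveld2*. The 4 with the largest compartment differences are printed here, since they are the DNA in front of the genes with the most unequal signal. Only the bases before the most upstream annotated start are printed, 5′ to 3′ on the strand of the gene, from the first window of each gene. Capitals mark CACCTG, the E-box bound by Zeb and Snai repressors, AACCNGTT, a Grainyhead motif, and GGGCGG, the box of Sp factors, on either strand.

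Rab25, chr3:88548280-88548529, minus strand: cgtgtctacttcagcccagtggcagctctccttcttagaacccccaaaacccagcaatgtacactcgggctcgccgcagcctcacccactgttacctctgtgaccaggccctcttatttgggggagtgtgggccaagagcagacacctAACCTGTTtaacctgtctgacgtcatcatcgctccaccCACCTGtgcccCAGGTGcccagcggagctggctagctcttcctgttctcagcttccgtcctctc
Rhpn2, chr7:35333987-35334179, plus strand: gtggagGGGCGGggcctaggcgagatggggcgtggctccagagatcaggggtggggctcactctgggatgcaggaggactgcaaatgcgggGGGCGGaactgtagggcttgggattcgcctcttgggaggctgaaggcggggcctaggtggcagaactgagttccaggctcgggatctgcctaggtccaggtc
Pard6b, chr2:168080754-168081003, plus strand: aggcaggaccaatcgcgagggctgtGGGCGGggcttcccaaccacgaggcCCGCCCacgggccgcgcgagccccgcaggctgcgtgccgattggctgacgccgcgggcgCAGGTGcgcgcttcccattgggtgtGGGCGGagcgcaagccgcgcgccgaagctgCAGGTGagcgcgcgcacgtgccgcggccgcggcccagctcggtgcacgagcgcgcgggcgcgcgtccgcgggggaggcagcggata
Marveld2, chr13:100616972-100617221, minus strand: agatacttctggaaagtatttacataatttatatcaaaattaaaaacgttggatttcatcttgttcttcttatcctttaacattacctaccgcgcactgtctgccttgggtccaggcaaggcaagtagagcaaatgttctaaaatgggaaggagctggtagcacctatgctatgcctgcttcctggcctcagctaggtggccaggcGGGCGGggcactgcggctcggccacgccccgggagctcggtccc

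In the whole windows, CACCTG was found in 4 of the 5 genes, all but *Rhpn2*, whereas 20.2% of all 32851 promoter windows held it. *Crb3* had 4 copies, *Rab25* and *Pard6b* 2 each, and *Marveld2* 1 copy, which lies after its start and is not among the printed bases. AACCNGTT was present in *Rab25* alone (2.09% of all windows), 102 bases before the start. GGGCGG was present in the other 4 genes (35.7% of all windows), and the *Rhpn2* window held 8 matches, of which the neighboring pair at 12 and 7 bases before the start share a base. The sequence TATAAA was found in *Marveld2* only (13.6% of all windows), TGANTCA, the AP-1 motif, in none (7.81% of all windows), and the full palindromic estrogen response element in none (0.07% of all windows). The windows had a GC content of 54 to 77%, against a median of 52.7% over all windows. A match is a description of letters in the window, and its use in these cells was not measured.

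The deposited values were linear signal intensities. Array medians were 12 to 44.1 for stroma and 10.9 to 66.8 for epithelium, and the 3 dimmest arrays were the ERα(+/+) vehicle epithelium of replicate 2 (10.9), the ERα(+/+) vehicle stroma of replicate 2 (12) and the ERα(+/+) BPA stroma of replicate 3 (14.6). All 13 epithelial markers examined were lower in the stroma, among them *Krt8* (log2 difference −4.48), *Krt18* (−4.33), *Epcam* (−3.22), *Cdh1* (−4.15) and *Krt14* (−3.55), whereas *Col1a1* (0.97), *Dcn* (2.32), *Adipoq* (2.08) and *Ptprc* (2.63) were higher there. Of the 8 fibroblast markers 1 went the other way, *Fbln1* (−0.19). Of the 5 adipocyte and 6 leukocyte markers 0 did. The summed signal of the epithelial markers was 579.5 to 4921.2 in the stroma and 10141.9 to 20584.6 in the epithelium, without overlap. The fibroblast markers summed to 31454.6 to 51790.4 in the stroma and 8528.7 to 33852.4 in the epithelium and the adipocyte markers to 10876.8 to 26003.5 and 2239.2 to 23983.4, so that for both lists the compartments overlapped. The signal of *Esr1*, the gene of ERα, was 20.3 to 396.7 (median 114.5) in ERα(+/+) stroma and 13.9 to 81.8 (median 37.6) in ERα(−/−) stroma. In the epithelium it was 1.1 to 142 (median 36.3) and 1.6 to 100.2 (median 23.1). The genotypes overlapped in both compartments, and whether this probe set lies in the deleted part of the gene was not determined. Markers of skeletal muscle summed to 14821.5 to 22400.8 on 3 stroma arrays (stroma median 145.9) and to 8482.9 and 12359.5 on 2 epithelium arrays (epithelium median 152.95), these 5 being EE2- or BPA-exposed. The next were the vehicle epithelium arrays of replicate 1, at 1106.9 in ERα(+/+) and 1055.8 in ERα(−/−) mice. Markers of keratinised epidermis were high in the ERα(+/+) vehicle arrays of replicate 3, with 17632.4 in the stroma and 12247.8 in the epithelium.

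All 8 genes had a lower mean log2 signal in the stroma than in the epithelium, and the difference was widest for *Rhpn2*, *Pard6b* and *Rab25*. The ratio of the mean signals, epithelium over stroma, was 25.8 for *Rhpn2*, 15.5 for *Pard6b* and 20.2 for *Rab25*. On the scale of mean log2 signals, where the dimmest stroma arrays weigh most, their differences were larger, as given gene by gene. When 16 was added to every intensity before taking log2, which damps differences between dim values, the differences were −3.03, −2.68 and −3.25. The median of the 8 differences, stroma minus epithelium, was −2.93 on the log2 scale, with the arrays raised to a floor of 0.1, and the median over all probe sets was −0.35, 71.2% of them being lower in the stroma. In bulk samples of this kind, fewer epithelial cells and less RNA per cell cannot be told apart.

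*Rab25*, the small GTPase of apical recycling, had a stroma signal of 1.8 to 47 (median 6.85) and an epithelium signal of 123.9 to 569.8 (median 222.8, 18 arrays each). No stroma array reached the lowest epithelium array. The log2 difference was −4.90 ± 1.71 (SD over 18 pairs of arrays of the same group and replicate number), and it was present in all 6 combinations of genotype and exposure, from −6.43 in BPA-exposed ERα(−/−) glands to −4.16 in ERα(−/−) vehicle glands.

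*Rhpn2*, the RhoA-binding scaffold, had a stroma signal of 0.2 to 25.7 (median 2.15) and an epithelium signal of 66.2 to 395 (median 144.2). The compartments again did not overlap. Its log2 difference was −6.19 ± 2.72 (SD, n = 18), and its other probe set gave −4.61, with overlap. Thus 2 of the 8 genes, *Rab25* and *Rhpn2*, had all stroma arrays below all epithelium arrays, a pattern seen for 0.191% of all probe sets (86 of 45101). Since the genes were chosen for this contrast, nothing is read from that share.

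*Pard6b*, the Par6 scaffold, gave 0.3 to 52.3 (median 1.65) in the stroma and 21.7 to 358.3 (median 132.1) in the epithelium. Its log2 difference was −5.54 ± 2.20 (SD, n = 18), with the stroma lower in 18 of 18 pairs, and the other probe set gave −4.68. The compartments overlapped on few arrays, 14 stroma arrays being below every epithelium array. *Marveld2* (tricellulin) was also well separated, with 3.5 to 105.2 (median 35.1) in the stroma and 89 to 479.4 (median 250.95) in the epithelium, a log2 difference of −3.21 ± 1.49 (SD, n = 18) and a lower stroma in 17 of 18 pairs.

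*Myo5b*, the vesicle motor, had a signal of 2 to 41.9 (median 17.85) in the stroma and 8.4 to 259 (median 95.05) in the epithelium. The log2 difference was −2.64 ± 1.83 (SD, n = 18), whereas its other probe sets gave −1.36 and −0.48. The size of the *Myo5b* difference therefore varied with the probe set, although all 3 were lower in the stroma.

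*Crb3*, the apical Crumbs protein, gave 2 to 1642 (median 22.7) in the stroma and 10.5 to 346.9 (median 139.6) in the epithelium. The highest stroma value, 1642, came from the dim ERα(+/+) vehicle array of replicate 2, and the next, 470.1, from the ERα(+/+) BPA array of replicate 1. On the epithelium array with the same group and number as the first, *Crb3* had its lowest epithelium value, 10.5. The log2 difference was −2.17 ± 3.09 (SD, n = 18), an SD larger than the difference, and it lay at 1.41 in ERα(+/+) vehicle glands and at −4.96 in BPA-exposed ERα(−/−) glands. The other *Crb3* probe sets, whose highest stroma values were 53.5 and 122.1, gave −1.51 and −0.40.

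The remaining genes had the smallest differences in mean log2 signal at their brightest probe sets. In the ratio of mean signals, epithelium over stroma, they had 2.42 (*Llgl2*) and 1.64 (*Rab11fip1*). That of *Crb3* was lower, 1.09, with the stroma array at 1642 in its mean. *Llgl2*, the basolateral Lgl protein, had 3.6 to 43.4 (median 15.8) in the stroma and 7.9 to 105.6 (median 41.75) in the epithelium, a log2 difference of −1.40 ± 1.51 (SD, n = 18). *Rab11fip1*, the Rab11 effector, had 3 to 86.7 (median 24.25) and 10.9 to 96.7 (median 48.8), a log2 difference of −0.89 ± 0.96 (SD, n = 18), and its dimmer probe set gave −1.88. In none of the 6 combinations of genotype and exposure did the 3 stroma arrays of *Rab11fip1* fall wholly below the 3 epithelium arrays.

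**Figure D1:**
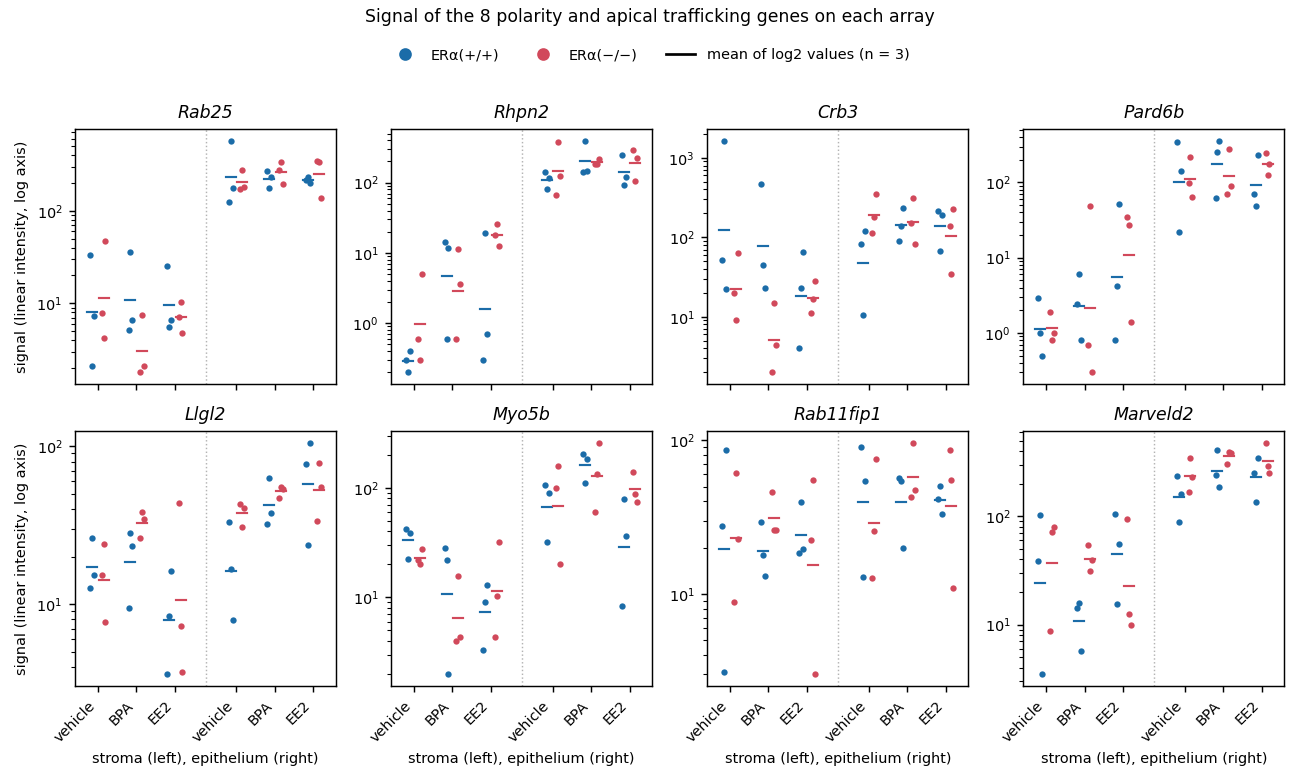
Signal of the 8 genes on each of the 36 arrays (linear intensity on a log axis), by exposure, with stroma to the left and epithelium to the right of the dotted line; points are arrays, colors are genotypes and bars are the mean of the log2 values of 3 arrays. *Rab25* and *Rhpn2* show no overlap of the compartments, with stroma arrays up to 47 and 25.7 and epithelium arrays from 123.9 and 66.2, whereas *Rab11fip1* and *Llgl2* overlap widely.

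**Figure D2:**
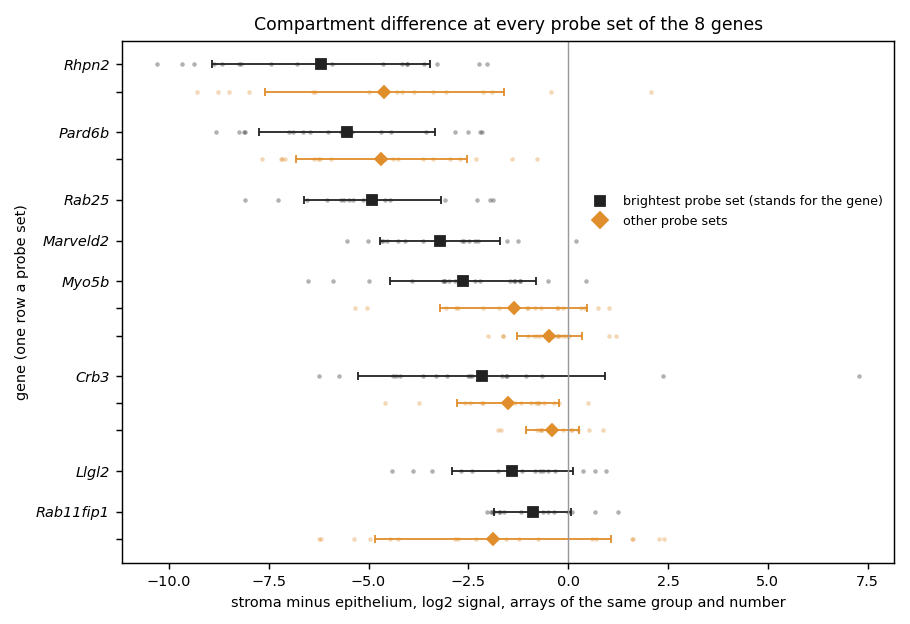
Stroma minus epithelium difference in log2 signal at each of the 15 probe sets of the 8 genes; small points are the 18 pairs of arrays with the same group and number, squares and diamonds are means and bars are SD. All 15 means lie below 0, from −6.19 for *Rhpn2* to −0.40 for a dimmer *Crb3* probe set.

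When the 12 groups were ordered by mean log2 signal, the 6 epithelium groups came first for *Rab25*, *Rhpn2*, *Pard6b* and *Marveld2*. Neighbors in that order rarely differed beyond their spread: for *Rhpn2*, *Pard6b* and *Marveld2*, 10 of 11 neighboring pairs lay within the larger of their SDs, the exception being the step from the lowest epithelium to the highest stroma group. *Rab25* had 9 of 11 such pairs, the other step being that to its lowest group, the BPA-exposed ERα(−/−) stroma. For *Myo5b* and *Crb3*, 10 of 11 neighboring pairs lay within the larger SD and for *Llgl2* and *Rab11fip1* all 11. For these 4 genes at least a single stroma group ranked above an epithelium group. The highest group differed among the genes: it was BPA-exposed ERα(+/+) epithelium for *Rhpn2*, *Pard6b* and *Myo5b*, BPA-exposed ERα(−/−) epithelium for *Rab25*, *Rab11fip1* and *Marveld2*, vehicle ERα(−/−) epithelium for *Crb3* and EE2-exposed ERα(+/+) epithelium for *Llgl2*.

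The design asked whether BPA and EE2 changed expression in each compartment and whether such changes needed ERα. In the epithelium, no member of the group passed limma's test at an adjusted p under 0.05 after BPA, with 0 of 45101 probe sets called (0%). At an unadjusted p under 0.05 the count was 0 of 8, beside 17.7% of all probe sets, and the methods' t-test with Benjamini-Hochberg adjustment called 0 of 8. All 8 had a log2 change above 0, with a median of 0.65, and the median over all probe sets was 0.68. The median signal of the epithelium arrays was itself 10.9 to 42.8 (median 31.3) after vehicle and 29.9 to 66.8 (median 50.6) after BPA, and its part in the changes was not tested. Markers of stromal cell types moved with the exposures on the same arrays. The endothelial markers summed to 61 to 2936.1 (median 390.8) after vehicle, 310 to 3685.5 (median 2069.7) after BPA and 225.2 to 2861.8 (median 1323.35) after EE2, and the fibroblast markers had medians of 13477.4, 24598.7 and 20036.9. The exposures overlapped in both lists, and the part of these cells in the changes was not tested. Quantile normalization gives the arrays the same distribution of signals and does not adjust for cell content. After it, 3 of the 8 genes were above 0 and their median was −0.09.

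The highest change with BPA in the epithelium was that of *Myo5b*. Its signal was 20.4 to 158.4 (median 95.05) after vehicle and 60.6 to 259 (median 159) after BPA, with overlap. The log2 change was 1.08 ± 0.63 (SE, adjusted p = 0.352, limma). *Llgl2* had 7.9 to 42.9 (median 31.8) after vehicle and 32.3 to 63 (median 50.5) after BPA, a log2 change of 0.92 ± 0.45 (SE, adjusted p = 0.295, limma). *Marveld2* had 89 to 343.7 (median 198.65) after vehicle and 185 to 405.6 (median 344.15) after BPA, a log2 change of 0.70 ± 0.39 (SE, adjusted p = 0.338, limma). The change of *Rab25* was the lowest of the 8, at 0.15 ± 0.41 (SE).

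After EE2, 0 of the 8 genes passed in the epithelium (limma), beside 0.00222% of all probe sets, which is a single probe set, and the methods' t-test with adjustment called 0. A single gene, *Llgl2*, had an unadjusted p under 0.05, beside 8.88% of all probe sets. Its signal was 23.8 to 105.6 (median 66.05) after EE2, above the vehicle median of 31.8 but overlapping the vehicle range. The log2 change was 1.16 ± 0.45 (SE, unadjusted p = 0.021, adjusted p = 0.526, limma), and after quantile normalization it was 0.54. By genotype, the *Llgl2* change with EE2 was 1.83 ± 0.64 in ERα(+/+) and 0.48 ± 0.64 (SE) in ERα(−/−) epithelium. The EE2 by genotype term was −1.35 ± 0.90 (SE, unadjusted p = 0.155, adjusted p = 0.911, limma). The mean log2 signal was 4.03 in ERα(+/+) and 5.23 in ERα(−/−) epithelium after vehicle, and 5.85 and 5.72 after EE2. The median change of the 8 genes was 0.30, with 7 above 0, against 0.40 over all probe sets. After quantile normalization 2 of the 8 were above 0 and the median was −0.20.

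BPA and EE2 were also set against each other in the epithelium, where 0 of 8 genes passed (limma, 0% of all probe sets, and 0 by the methods' t-test with adjustment). *Myo5b* alone had an unadjusted p under 0.05, beside 4.22% of all probe sets. Its EE2-exposed epithelium gave 8.4 to 139.3 (median 76.95), below the BPA-exposed arrays in median but overlapping them, and the log2 difference, BPA minus EE2, was 1.44 ± 0.63 (SE, adjusted p = 1.00, limma). The other *Myo5b* probe sets gave 0.24 and 0.68.

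Between the genotypes, 0 of the 8 genes passed in the epithelium (limma, 0% of all probe sets), with 0 at an unadjusted p under 0.05, beside 8.19% of all probe sets, and 0 by the methods' t-test with adjustment. Of the 8 changes, ERα(−/−) minus ERα(+/+), 7 were above 0, with a median of 0.36 against 0.38 over all probe sets, and after quantile normalization 3 were above 0, with a median of −0.05. *Crb3* had the highest change, 0.58 ± 0.54 (SE), and *Rab11fip1* the lowest, −0.01 ± 0.51 (SE). The array medians were 10.9 to 51.1 (median 34.8) in ERα(+/+) and 21.2 to 66.8 (median 50.1) in ERα(−/−) epithelium, and their part was not tested.

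In the stroma the signals of the 8 genes were low and their spread was wide. After BPA, 0 of 8 passed (limma, 0% of all probe sets, and 0 by the methods' t-test with adjustment), whereas *Rhpn2* and *Myo5b* had an unadjusted p under 0.05, beside 4.54% of all probe sets. After EE2, 0 of 8 passed (limma, 0% of all probe sets, and 0 by the methods' t-test with adjustment), whereas *Rhpn2*, *Pard6b* and *Myo5b* had an unadjusted p under 0.05, beside 4.51% of all probe sets. Both comparisons used the same 6 vehicle arrays.

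*Rhpn2* in the vehicle stroma gave 0.2, 0.3 and 0.4 in ERα(+/+) and 0.3, 0.6 and 5 in ERα(−/−) mice. After BPA it gave 0.6, 11.9 and 14.5 in ERα(+/+) and 0.6, 3.6 and 11.3 in ERα(−/−) mice. After EE2 it gave 0.3, 0.7 and 19.5 in ERα(+/+) and 12.6, 17.7 and 25.7 in ERα(−/−) mice. The EE2-exposed ERα(−/−) arrays stood above all vehicle arrays, and the other exposed groups overlapped them. The log2 change over both genotypes was 2.81 ± 1.09 for BPA (SE, unadjusted p = 0.0202, adjusted p = 0.993, limma) and 3.34 ± 1.09 for EE2 (SE, unadjusted p = 0.0073, adjusted p = 0.996, limma). All of these stroma values lay below the lowest epithelium value of 66.2. With the offset of 16 the changes were 0.39 and 0.66. At the other *Rhpn2* probe set the changes were −1.66 and −0.22, in the opposite direction.

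*Pard6b* in the vehicle stroma gave 0.5, 1 and 2.9 in ERα(+/+) and 0.8, 1 and 1.9 in ERα(−/−) mice. After EE2 it gave 0.8, 4.2 and 52.3 in ERα(+/+) and 1.4, 26.8 and 34.9 in ERα(−/−) mice. Of the 6 EE2-exposed arrays, 2 lay within the vehicle range. The log2 change was 2.78 ± 1.25 (SE, unadjusted p = 0.0409, adjusted p = 0.996, limma), and the other probe set gave 2.54, in the same direction. With the offset of 16 the change was 0.84 (unadjusted p = 0.0563, limma). After BPA *Pard6b* gave 0.8, 2.4 and 6 in ERα(+/+) and 0.3, 0.7 and 48.5 in ERα(−/−) mice. With BPA its log2 change was 0.96 ± 1.25 (SE). The EE2-exposed ERα(+/+) array with 52.3, that of replicate 3, also had the highest summed epithelial markers of its group, 3057.9 against 1162.5 and 867.6. In EE2-exposed ERα(−/−) stroma the order was the opposite. There the highest sum, 2342.9, lay on the array with 1.4, and the arrays with 34.9 and 26.8 had sums of 1117.3 and 1399.4. In BPA-exposed ERα(−/−) stroma the array with 48.5 had the highest sum of its group, 2410.1 against 579.5 and 894.6. In BPA-exposed ERα(+/+) stroma the array with 6 had the lowest sum, 733 against 2352.8 and 1980.9. The part of these markers in the *Pard6b* values was not tested.

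*Myo5b* had changes below 0 in exposed stroma at its brightest probe set, none of which passed the adjusted test. In the vehicle stroma it gave 22.6, 39 and 41.9 in ERα(+/+) and 20, 21.8 and 27.9 in ERα(−/−) mice. After BPA it gave 2, 22 and 28.4 in ERα(+/+) and 4, 4.4 and 15.7 in ERα(−/−) mice. After EE2 it gave 3.3, 9.1 and 13.1 in ERα(+/+) and 4.4, 10.3 and 32.3 in ERα(−/−) mice. Most exposed arrays lay below the whole vehicle range, 2 of the 6 BPA arrays and 1 of the 6 EE2 arrays being within it. The log2 change was −1.72 ± 0.70 for BPA (SE, unadjusted p = 0.0245, adjusted p = 0.993, limma) and −1.60 ± 0.70 for EE2 (SE, unadjusted p = 0.0349, adjusted p = 0.996, limma). With the offset of 16 the changes were −0.70 and −0.72. The other *Myo5b* probe sets gave 1.13 and 0.25 for BPA, and 1.16 and −0.43 for EE2.

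The epithelial markers in the stroma summed to 647 to 4921.2 (median 2294.4) after vehicle, 579.5 to 2410.1 (median 1437.75) after BPA and 867.6 to 3057.9 (median 1280.95) after EE2. The highest sum, 4921.2, was on the ERα(−/−) vehicle array of replicate 3, which also held the highest vehicle values of *Rhpn2* (5) and *Rab25* (47). Over the 18 stroma arrays the correlation of a gene's log2 signal with the mean log2 signal of these markers was highest for *Rab25* (r = 0.48) and *Myo5b* (r = 0.43) and was 0.12 for *Rhpn2* and 0.14 for *Pard6b*, as a description of arrays that share brightness. In median the epithelial markers were lower after exposure, as was *Myo5b* at its brightest probe set. Its other probe sets gave changes of 1.13 and 0.25 with BPA and of 1.16 and −0.43 with EE2. *Rhpn2* and *Pard6b* were not lower at their brightest probe sets. The part of the markers in these values was not tested.

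**Figure D3:**
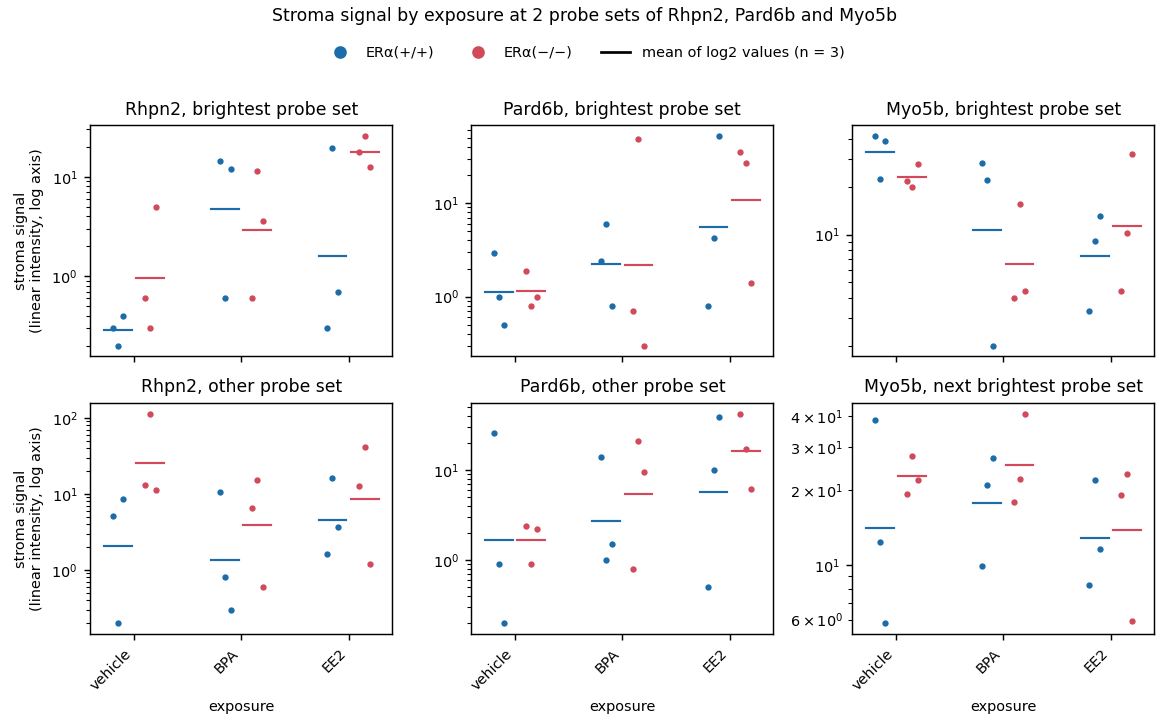
Stroma signal (linear intensity on a log axis) of *Rhpn2*, *Pard6b* and *Myo5b* by exposure, at the brightest probe set (top) and the next brightest (bottom); points are arrays, colors are genotypes and bars are the mean of the log2 values of 3 arrays. The log2 change with EE2 has the same sign at both probe sets of *Pard6b* (2.78 and 2.54) and opposite signs at those of *Rhpn2* (3.34 and −0.22); for *Myo5b* the plotted probe sets gave −1.60 and −0.43 with EE2 and −1.72 and 0.25 with BPA, and the remaining one, not plotted, gave 1.16 with EE2.

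The exposures were compared directly in the stroma as well, with 0 of 8 genes called (limma, 0% of all probe sets, and 0 by the methods' t-test with adjustment). *Llgl2* alone had an unadjusted p under 0.05, beside 3.75% of all probe sets. It gave 9.5 to 38.4 (median 27.4) after BPA and 3.6 to 43.4 (median 7.85) after EE2, with overlap, and the log2 difference was 1.43 ± 0.61 (SE, adjusted p = 1.00, limma). The median changes of the 8 genes against vehicle in the stroma were −0.15 for BPA and −0.18 for EE2, beside 0.16 and 0.00 over all probe sets.

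Between genotypes in the stroma, 0 of 8 genes passed (limma, beside 0.00222% of all probe sets, and 0 by the methods' t-test with adjustment), and *Crb3* alone had an unadjusted p under 0.05, beside 3.82% of all probe sets. Its stroma signal was 4 to 1642 (median 44.3) in ERα(+/+) and 2 to 63 (median 14.8) in ERα(−/−) mice, with overlap. The log2 change was −2.16 ± 0.86 (SE, unadjusted p = 0.0234, adjusted p = 1.00, limma). The other *Crb3* probe sets gave 0.76 and 0.33, in the opposite direction.

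**Figure D4:**
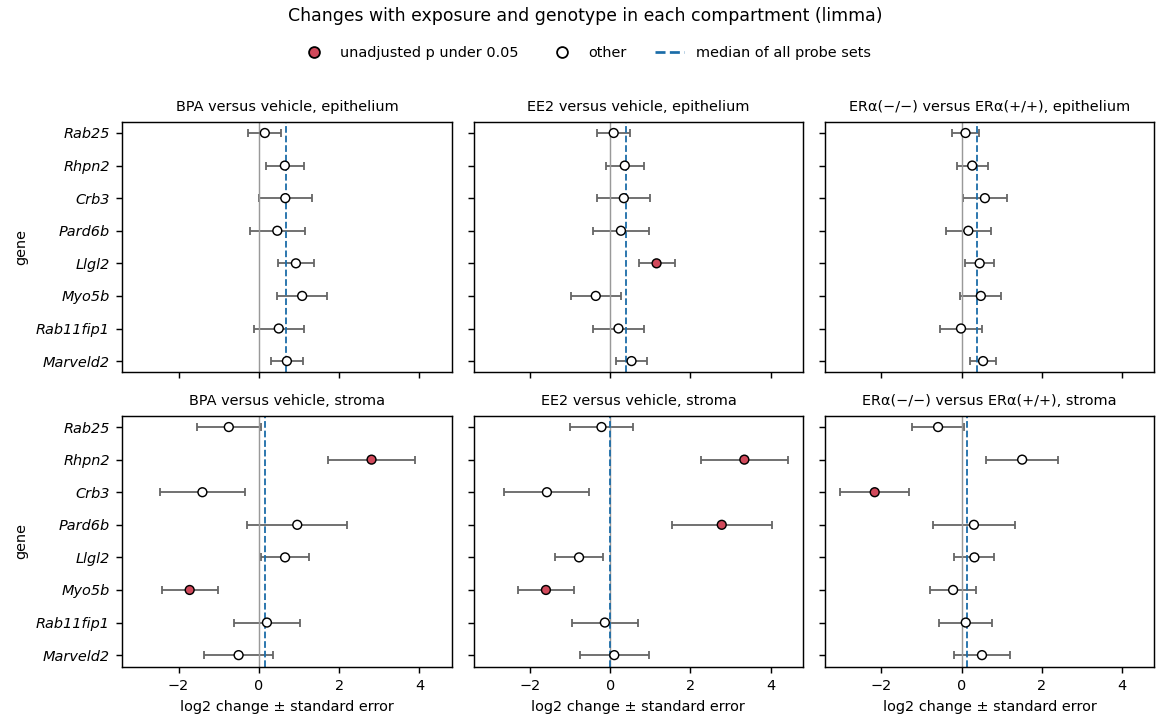
Log2 change ± SE of each of the 8 genes with BPA, with EE2 and with genotype, in the epithelium (top) and the stroma (bottom); red points have an unadjusted p under 0.05 and the dashed line is the median of all probe sets. In the epithelium most changes sit near the dashed line (0.68 for BPA), and in the stroma the widest changes are those of *Rhpn2* (2.81 and 3.34), *Pard6b* with EE2 (2.78) and *Crb3* with genotype (−2.16); no gene passed the adjusted test.

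Whether an exposure acted differently in the genotypes or compartments was tested by interaction terms, 56 in all for the 8 genes, and limma called 0 of them at an adjusted p under 0.05 (0% of all probe sets in each of these comparisons). The methods' t-test gives no interaction. For BPA by genotype and EE2 by genotype, 0 of 8 genes had an unadjusted p under 0.05 in either compartment, beside 3.47% and 6.01% of all probe sets in the epithelium and 3.68% and 3.99% in the stroma. For BPA by compartment, *Myo5b* had an unadjusted p under 0.05 (5.57% of all probe sets), with a log2 term, stroma minus epithelium, of −2.80 ± 0.95 (SE, adjusted p = 0.864, limma), and its other probe sets gave 0.32 and −0.75. For EE2 by compartment these were *Rhpn2*, with a term of 2.98 ± 1.24, and *Llgl2*, with −1.93 ± 0.75 (SE), beside 5.51% of all probe sets. The *Rhpn2* term was 0.34 with the offset of 16, and its other probe set gave −1.54, in the opposite direction. The *Llgl2* term was −1.30 after quantile normalization (unadjusted p = 0.146, limma). For genotype by compartment it was *Crb3*, with −2.75 ± 1.06 (SE), beside 3.71% of all probe sets, and its other probe sets gave 0.91 and 0.49, in the opposite direction.

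The genes that work with the 8 were read from a list of 40 measured partners, which was compiled with earlier results of these data known. In the stroma 33 of the 40 were lower than in the epithelium, with a median of −0.59 and a range from −4.52 to 0.79. The lowest were *Marveld3* (−4.52), a relative of tricellulin, and *Ocln* (−4.12), encoding occludin of the tight junction. The highest were *Sytl2* (0.79) and *Sytl4* (0.61), which encode synaptotagmin-like Rab effectors. By subgroup, 4 of 5 tight junction genes were lower in the stroma (median −2.56), 4 of 4 Crumbs partners (median −1.15), 5 of 6 Par partners (median −0.78), 3 of 3 genes of the Scribble module (median −0.64), 11 of 12 genes of Rab11 recycling and its motors (median −0.36), 5 of 8 genes of apical delivery and lumen (median −0.43) and 1 of 2 genes of rhophilin and RhoA (median −0.15).

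None of the 40 partners passed limma's adjusted test in any exposure, genotype or interaction comparison. At an unadjusted p under 0.05, 5 were higher and 0 lower in the epithelium with BPA, with EE2 and with loss of ERα, the all-gene shares for higher values being 17.3%, 8.15% and 7.86%. In the stroma 0 were higher and 1 lower with BPA (1.35% of all probe sets were lower), and 0 higher and 3 lower with EE2 (2.62% of all probe sets were lower). With genotype it was 0 in either direction (3.82% of all probe sets). The 3 lower with EE2 were *Llgl1*, *Rab11fip3* and *Ocln*, which act in the Scribble module, in Rab11 recycling and at the tight junction. Over all stroma arrays their signals were 273 ± 421, 74.55 ± 52.96 and 14.2 ± 8.0 (mean ± SD). For BPA against EE2, 0 were higher or lower in the epithelium (4.22% of all probe sets). In the stroma 2 were higher and 0 lower (3.75%). For BPA and EE2 by compartment 4 and 6 were lower and 0 higher, beside 5.57% and 5.51% of all probe sets in either direction. For genotype by compartment 1 was lower (3.71%). For BPA by genotype 1 was higher in the epithelium (3.47%) and 2 in the stroma (3.68%). For EE2 by genotype 3 were higher in the epithelium (6.01%), and 1 was higher and 2 lower in the stroma (3.99%).

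The 8 genes varied together mainly through the compartments. Over all 36 arrays the correlation between 2 of them had a median of r = 0.50 over 28 pairs, with 27 above 0. Within the 18 epithelium arrays the median was 0.23, and within the 18 stroma arrays it was 0.02, with 15 of the 28 pairs above 0. The arrays share brightness, and in the epithelium the correlation of a gene's log2 signal with the log2 array median reached 0.80 for *Marveld2* and 0.62 for *Rhpn2*, whereas it was −0.14 for *Rab25*.

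The 8 other genes whose log2 signal was most like the mean of the members' standardized values over 36 arrays were *Gata3* (r = 0.93), *Cd9*, *Muc15* and *Tfap2b* (0.92 each), and *Runx1*, *Spint2*, *St14* and *Bex4* (0.91 each), whereas the median over 18186 genes was 0.20. *Gata3*, a transcription factor of the luminal lineage, gave 0.7 to 32.9 (median 2.1) in the stroma and 4.5 to 483.2 (median 155.5) in the epithelium. *Spint2*, a membrane serine protease inhibitor, gave 71.4 to 917.2 and 1695.7 to 3937.9, without overlap. *St14*, encoding the membrane protease matriptase, gave 12.3 to 99.4 and 86.5 to 946.8, with slight overlap. The likeness was weaker within a compartment: for *Gata3* r was 0.77 over the 18 epithelium arrays and 0.48 over the 18 stroma arrays, and for *St14* 0.80 and −0.03. Beside these, the median r over all genes was 0.37 within the epithelium and 0.04 within the stroma. None of these 8 was among the 8 most alike genes within the epithelium alone or the stroma alone.

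**Figure D5:**
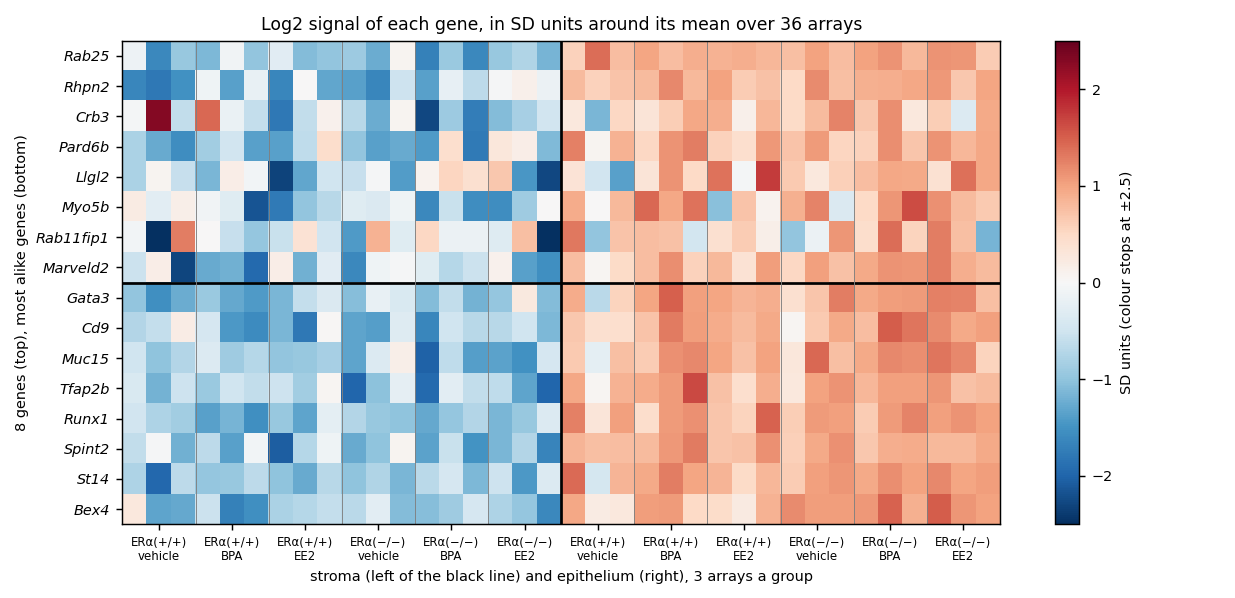
Log2 signal of the 8 genes (top) and of the 8 genes most like them (bottom) on 36 arrays, in SD units around the mean of each gene, with stroma to the left and epithelium to the right of the black line and 3 arrays a group. The change from low to high at the black line is shared by nearly all rows, and within a compartment the rows show little common pattern; the *Crb3* array at 1642 stands out in the vehicle ERα(+/+) stroma.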

How the data were processed

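The authors deposited linear intensity values of 45101 probe sets for 36 Affymetrix Mouse Genome arrays, per the labels output of GCOS. The methods describe RMA normalization and logs, but the deposited intensity values were not logs, and the scaling they received is not given in the sources used here. Per the labels, each array is a biological replicate, and groups were read from the titles. Each value was raised to at least 0.1 (39 values were 0) and taken to log2, with no filter on low signal. Of the probe sets, 34958 had 1 gene symbol, 932 several and 9211 none. In R 4.3.3 with limma 3.58.1, the 6 groups of a compartment were fitted together for exposure and genotype contrasts averaged over the other factor, and all 12 groups for interactions with compartment, with p-values adjusted by Benjamini-Hochberg over the whole array and 0.05 as threshold. The fits were tested on simulated data. The members, the lists of partners and markers, and the naming rules (the 8 members, the 2 highest and 2 lowest partners, the 8 most alike genes, 10 marker genes) were chosen with earlier results of these data known. Alternatives were quantile normalization, centring on array medians, an offset of 16, a filter on mean signal, array weights, the methods' t-test, replicate blocks, and leaving out each array. Leaving out the 3 dimmest arrays and reading other probe sets were chosen after seeing the data. Of the partners called at an unadjusted p, only the lower ones with EE2 in the stroma are listed, a choice made after their values were seen. Promoter sequences are RefSeq's, GRCm38.p6, with none found for *Llgl2* and *Rab11fip1*. Windows on chromosome 18, where *Myo5b* lies, were not used. The number of arrays limits the precision.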

Additional observations from a re-analysis of the deposited data

Results flagged for a closer look

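Among 80 sets of 6 or 9 arrays of a gene that were examined for a single array far from the others, 4 stood out, and chance gives about 1 in 20. *Rhpn2* was 5 in the ERα(−/−) vehicle stroma of replicate 3, with the next of the 6 vehicle stroma arrays at 0.6. *Crb3* was 1642 in the ERα(+/+) vehicle stroma of replicate 2, with the next at 63. *Crb3* was 10.5 in the ERα(+/+) vehicle epithelium of replicate 2, with the next of the 9 ERα(+/+) epithelium arrays at 67.2. *Llgl2* was 9.5 in the ERα(+/+) BPA stroma of replicate 1, with the next of the 6 BPA stroma arrays at 23.2. None of the 56 interaction terms of the 8 genes was called.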

How the results depend on the processing

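No member passed limma's adjusted test in any of the 15 comparisons under any alternative run. The methods' t-test without adjustment, with a change of at least 2-fold, called 1 gene for EE2 in the epithelium (4.3% of all probe sets by this rule), 2 for BPA (2.95%) and 3 for EE2 (3.08%) in the stroma, and 1 for genotype in the stroma (2.68%). Of the 8 genes most like the members, 3 remained among the 8 after quantile normalization, 5 after centring on array medians and 5 with the offset of 16. The median compartment difference of −2.93 ranged from −3.02 to −2.78 when each array was left out in turn, and was −2.57 after quantile normalization, −2.52 after centring, −2.08 with the offset, −2.64 over the 5 members that passed the filter, −2.35 over all probe sets of each member and −3.01 without the 3 dimmest arrays. Leaving out single arrays moved the *Rhpn2* stroma change between 2.32 and 3.55 for BPA and between 2.44 and 3.95 for EE2, that of *Pard6b* for EE2 between 1.97 and 3.52, and that of *Myo5b* between −2.07 and −1.12 for BPA and between −1.98 and −1.26 for EE2. The compartments of a group deviated together (r over 0.1) in 7 of 18 same-numbered pairs (mean 0.08) and in 0 of 36 pairs of different number (mean −0.04). The labels do not say that a number marks a gland, but the high muscle and epidermis markers of a group lay on arrays of the same number in both compartments for 3 groups (in 1 other group on a stroma array alone), so that it may mark one. A replicate block of the gland called 0 members in the 3 interactions with compartment, and the 4 terms with an unadjusted p under 0.05 kept it (0.0063 for *Myo5b*). Same-numbered arrays of other genotypes had r over 0.1 in 0 of 9 pairs in each compartment. Their mean r was 0.03 in the epithelium, against −0.02 for different numbers, and 0.003 in the stroma, against −0.001. Same-numbered arrays of other exposures had r over 0.1 in 1 of 18 epithelium and 0 of 18 stroma pairs. Whether a number marks a litter was not settled. A replicate block of those numbers called 0 members in the other 12 comparisons. With equal groups such a block cannot move a log2 change, only its SE and p. For *Rhpn2* with EE2 in the stroma the SE was 1.13 under it (unadjusted p = 0.0102, limma). Without the block it was 1.09 (unadjusted p = 0.0073, limma). The lowest intensities, near the floor of 0.1, limit what the stroma fold changes can show.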
